A study of Mus musculus with 6 samples.

Results

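Lactate dehydrogenases and monocarboxylate transporters, with the membrane proteins that accompany the transporters to the cell surface, were examined in fetal mouse testes that lacked Ppp1r3c in somatic cells. The group held 9 genes of the 24470 in the count table, chosen by name for their function while earlier results of these data were known. They were the lactate dehydrogenase genes Ldha, Ldhb, Ldhc and Ldhd, the transporter genes Slc16a1 (MCT1), Slc16a3 (MCT4) and Slc16a7 (MCT2), and the chaperone genes Bsg and Emb. All 9 were found in the table by symbol, and all 9 passed the filter on low counts that left 15577 genes for testing. Ldha and Slc16a3 were higher in every Ppp1r3c cKO sample than in every control sample, which held for 8.42% of all tested genes. Ldhc was lower in every cKO sample, which held for 7.17%. However, Ldhc had at most 13 counts in a sample and passed the filter through the control group alone, so a lower cKO level was built in. In edgeR, 0 of the 9 genes passed a false discovery rate of 0.05, which 0.0385% of all tested genes did.

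RNA was sequenced from whole testes at E12.5 of embryonic development, with 3 control and 3 cKO (conditional knockout) samples and 2 gonadal pairs pooled in each sample. The control embryos were Ppp1r3c f/f, homozygous for a floxed allele. The cKO embryos were Sf1-Cre Ppp1r3c f/f, so the floxed alleles were shared by both groups and the Cre transgene was carried by the cKO group alone. Sf1-Cre (also Nr5a1-Cre) is a transgene expressed in the progenitors of Sertoli cells, the somatic cells that surround the germ cells, and the germ cells are not its target. The product of Ppp1r3c targets protein phosphatase 1 to glycogen and favours its synthesis, and the comparison asked how the testis transcriptome differs when that synthesis is disturbed in Sertoli cells.

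Lactate dehydrogenase interconverts pyruvate and lactate at the end of glycolysis. The A subunit is the form typical of tissues that release lactate, the B subunit is typical of tissues that oxidise it, the C subunit is known from the adult male germ line, and the D enzyme acts on D-lactate in mitochondria. Monocarboxylate transporters carry lactate and pyruvate together with a proton, MCT4 being best known for export and MCT1 and MCT2 for uptake, and they reach the membrane with basigin (the product of Bsg) or embigin (the product of Emb). In the adult testis, Sertoli cells release lactate that germ cells use as fuel.

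Library totals ranged from 16139487 to 44145158 counts, with control replicate 1 the shallowest. Ppp1r3c lay between 22.1 and 24.4 CPM (counts scaled to library size) in the controls and between 4.71 and 5.96 CPM in the cKO samples, a log2 fold change of -2.11 (SE 0.111, edgeR adjusted p = 0.000126). The tissue carried its defining markers, with the 13 Sertoli cell genes summing to between 2440 and 3181 CPM in every sample. That sum includes Nr5a1, the gene that names the Cre, with a mean of 347 CPM in control and 550 CPM in cKO. EdgeR called 1 of the 13, Nr5a1 (adjusted p = 0.0401), where 0.0385% of all tested genes were called. By fitted value, 7 of the 13 were higher and 6 lower in cKO. The library labelled cKO replicate 3 stood apart. Xist, the RNA of the inactive X chromosome, had 12534 counts there and between 6 and 41 in the other libraries. The 7 pre-granulosa (ovarian supporting cell) genes summed to 519 CPM there and to between 255 and 295 CPM elsewhere. Lhx9, at 172 to 202 CPM, made up most of the sum elsewhere. Fst had 13 to 87 counts in the other libraries and 1684 in cKO replicate 3. Foxl2 had 7 to 44 counts in the other libraries and 250 in cKO replicate 3. Log2 fold changes without cKO replicate 3 are therefore given for each of the 9 genes and for each other gene of the pathway named with its values. The 13 tested germ cell genes had a median log2 fold change of -0.84, all 13 being lower in cKO by their fitted value, and the 14 listed summed to 577, 870 and 926 CPM in control replicates 1, 2 and 3 and to 604, 295 and 456 CPM in cKO replicates 1, 2 and 3. In bulk tissue, fewer cells of a type and less RNA per cell cannot be told apart. The smallest p that an exact permutation test (two-sided) can reach with these 6 samples is 0.1. The samples were separate pools, and no source used here says whether they came from different litters.

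The bases before an annotated transcription start are shown for the well-detected members whose groups did not overlap (Ldha and Slc16a3) and for their closest relatives (Ldhb and Slc16a1). Capitals mark ACGTG or its reverse complement CACGT, 1 form of the core letters recognised by the hypoxia-inducible factors, textbook regulators of Ldha and Slc16a3. The other form, GCGTG, was not searched, and it can be read unmarked in the Ldhb and Slc16a1 windows. Where both overlap they form CACGTG, the E-box, and were counted as 1 site. The sequences are RefSeq promoter windows on GRCm38.p6 (the mm10 assembly), cut to the 250 bases before the start and read 5′ to 3′ on the gene's strand, with the base just before the start as position -1. They are Ldha at chr7:46845554-46845803 (plus strand), Slc16a3 at chr11:120948817-120949066 (plus strand), Ldhb at chr6:142507958-142508207 (minus strand) and Slc16a1 at chr3:104638414-104638663 (plus strand).
Ldha: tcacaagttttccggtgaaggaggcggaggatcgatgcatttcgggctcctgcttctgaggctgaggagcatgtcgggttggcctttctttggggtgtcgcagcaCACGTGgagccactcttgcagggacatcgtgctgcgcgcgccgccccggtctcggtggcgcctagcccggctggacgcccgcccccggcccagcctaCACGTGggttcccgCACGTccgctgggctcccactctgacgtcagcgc
Slc16a3: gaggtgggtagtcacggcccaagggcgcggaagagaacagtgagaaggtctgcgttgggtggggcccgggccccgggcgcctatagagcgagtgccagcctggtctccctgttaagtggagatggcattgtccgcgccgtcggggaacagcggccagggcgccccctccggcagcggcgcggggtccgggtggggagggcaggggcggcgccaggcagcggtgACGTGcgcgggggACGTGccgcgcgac
Ldhb: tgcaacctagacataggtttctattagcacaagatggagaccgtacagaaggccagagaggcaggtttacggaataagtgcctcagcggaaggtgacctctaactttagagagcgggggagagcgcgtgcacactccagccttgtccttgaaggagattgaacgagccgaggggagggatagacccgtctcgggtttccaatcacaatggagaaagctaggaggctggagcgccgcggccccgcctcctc
Slc16a1: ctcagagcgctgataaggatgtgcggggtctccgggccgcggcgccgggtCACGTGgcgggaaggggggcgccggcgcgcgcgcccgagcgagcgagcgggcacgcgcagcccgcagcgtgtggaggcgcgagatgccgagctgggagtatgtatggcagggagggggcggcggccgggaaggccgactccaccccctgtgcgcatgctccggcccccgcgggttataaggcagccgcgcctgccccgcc

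The Ldha window held 3 sites, with first bases at positions -145, -48 and -34. The Slc16a3 window held 2 sites at -27 and -14, the Slc16a1 window held 1 at -200, and the Ldhb window held none of the letters searched. Windows were present for 7 of the 9 genes, namely these 4 with Ldhc, Ldhd and Emb, and 4 of the 7 held a site, the fourth being Ldhd at -139. Ldha and Ldhc each had a further start with no site in its window, so 4 of the 9 windows of these genes held a site. The Slc16a3 start of the table lies 583 bases inside the gene's span in the count table, so its window precedes an internal start, and the bases before the first base of that span were not searched. The letters occurred on either strand in 16.6% of all 32851 windows of this length. The matches describe the sequence and do not show that a factor bound there.

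Ldha, which encodes the A subunit, spans chr7:46845804-46855627 on the plus strand. Its level was 271, 317 and 248 CPM in control replicates 1, 2 and 3 and 402, 326 and 418 CPM in cKO replicates 1, 2 and 3. Every cKO sample lay above every control sample, with the narrowest gap between cKO replicate 2 and control replicate 2. The mean was 279 ± 34.7 CPM in control and 382 ± 49.2 CPM in cKO (SD, n = 3 each), 37.0% higher. The fitted log2 fold change was 0.45 (SE 0.109, 95% interval 0.21 to 0.70), with an edgeR adjusted p of 0.377. Among all tested genes, 3.78% had a log2 fold change at least as high, and the median over them was -0.0034. DESeq2, the tool the authors used, gave 0.46 (SE 0.102) with an adjusted p of 0.00469, so the call depended on the tool. Without cKO replicate 3, the library with Xist, the log2 fold change was 0.38 and the adjusted p was 0.633 in edgeR and 0.232 in DESeq2. In that fit DESeq2 called 14 genes in all, 0.0815% of those to which it gave an adjusted p. DESeq2 called Ldha in the other 5 of the 6 fits that left out 1 sample. The most genes were called without control replicate 1, 313 or 2.15%, and the lowest share of these 5 was 0.311%, 52 genes, without control replicate 2. Without control replicate 3 it called 48 genes, which were 2.99% because it gave an adjusted p to only 1604. The 2 cell type lists with their highest level in cKO replicate 3, those of the pre-granulosa and mesonephros genes, are set beside Ldha here. The 6 genes of the mesonephros, the embryonic kidney that adjoins the gonad, summed to 109, 118 and 106 CPM in control replicates 1, 2 and 3. In cKO replicates 1, 2 and 3 they summed to 122, 114 and 171 CPM. These sums largely followed 1 gene, Emx2, at 87.5, 93.1 and 78.3 CPM in the controls and 96.1, 96.3 and 143 CPM in the cKO samples. Pax2 and Gata3 had at most 1.95 CPM in any sample. Of the 5 mesonephros genes that were tested, 4 were higher and 1 was lower by fitted value. Their median log2 fold change was 0.51, or 0.32 without cKO replicate 3, while Cdh16 had between 0 and 12 counts. The part of either tissue in the Ldha difference was not tested. Processed copies of Ldha exist in the mouse genome, and the counting options the authors state include none for reads that match several places.

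Ldhb, which encodes the B subunit, spans chr6:142490249-142507957 on the minus strand. Its CPM were 780, 904 and 641 in control replicates 1, 2 and 3, and 898, 883 and 969 in cKO replicates 1, 2 and 3. The groups overlapped, control replicate 2 lying above cKO replicates 1 and 2. Ldhb had a log2 fold change of 0.24 (SE 0.108, 95% interval -0.0010 to 0.49, edgeR adjusted p = 0.440). The control samples spread more, with a coefficient of variation of 17.0% against 5.0% in cKO. DESeq2 called Ldhb only in the fit without control replicate 2, at an adjusted p of 0.0347 and a log2 fold change of 0.37, where 52 genes (0.311%) were called. Without cKO replicate 3 the Ldhb value was 0.20.

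Per kilobase of exon, the only scale on which levels of different genes are set side by side here, Ldhb was the most abundant member in both groups. Ldhb exceeded Ldha 4.19-, 4.15- and 3.75-fold in the controls and 3.25-, 3.94- and 3.37-fold in the cKO samples. Ldha therefore made up 19.3%, 19.4% and 21.0% of the length-scaled A, B and C transcripts in the controls and 23.5%, 20.2% and 22.9% in the cKO samples. The groups overlapped, because cKO replicate 2 lay below control replicate 3. The mean share was 19.9% ± 0.984 in control and 22.2% ± 1.74 in cKO (SD, n = 3 each), a difference of 2.30 percentage points that was described without a test. The difference remained positive, between 1.64 and 3.29 points, when each sample was left out in turn.

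Ldhc, which encodes the C subunit and spans chr7:46861263-46878142 on the plus strand, was close to the limit of detection. It had 8, 12 and 13 counts in control replicates 1, 2 and 3 and 5, 2 and 5 counts in cKO replicates 1, 2 and 3. Scaled to depth, every cKO sample (0.0556 to 0.151 CPM) lay below every control sample (0.272 to 0.493 CPM). Ldhc passed the filter through the control group alone, since 3 control and 0 cKO samples reached its cutoff of 0.263 CPM, so a lower cKO level was built into the way it passed, and it is named apart in the counts below. EdgeR gave a log2 fold change of -1.58 (SE 0.525, adjusted p = 0.377), and -1.84 without cKO replicate 3. DESeq2 gave no adjusted p for it. The summed counts, 33 in control and 12 in cKO, gave a depth-scaled ratio of 0.338 with an exact 95% interval of 0.159 to 0.671 that covers counting error only. Ldhc starts 5636 bases beyond the end of Ldha on the same strand. The germ cell genes were lower in cKO as well, and their part in the Ldhc values was not tested.

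Ldhd, the mitochondrial D-lactate dehydrogenase, spans chr8:111626271-111630322 on the minus strand and was also sparse. Its counts were 18, 36 and 26 in control replicates 1, 2 and 3 and 32, 50 and 34 in cKO replicates 1, 2 and 3. The depth-scaled groups overlapped widely, from 0.634 to 1.11 CPM in control and from 0.798 to 1.39 CPM in cKO. The log2 fold change of 0.38 (SE 0.323, 95% interval -0.35 to 1.11) was not distinguishable from 0 at this depth (edgeR adjusted p = 0.674), and it was 0.41 without cKO replicate 3.

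**Figure D1:**
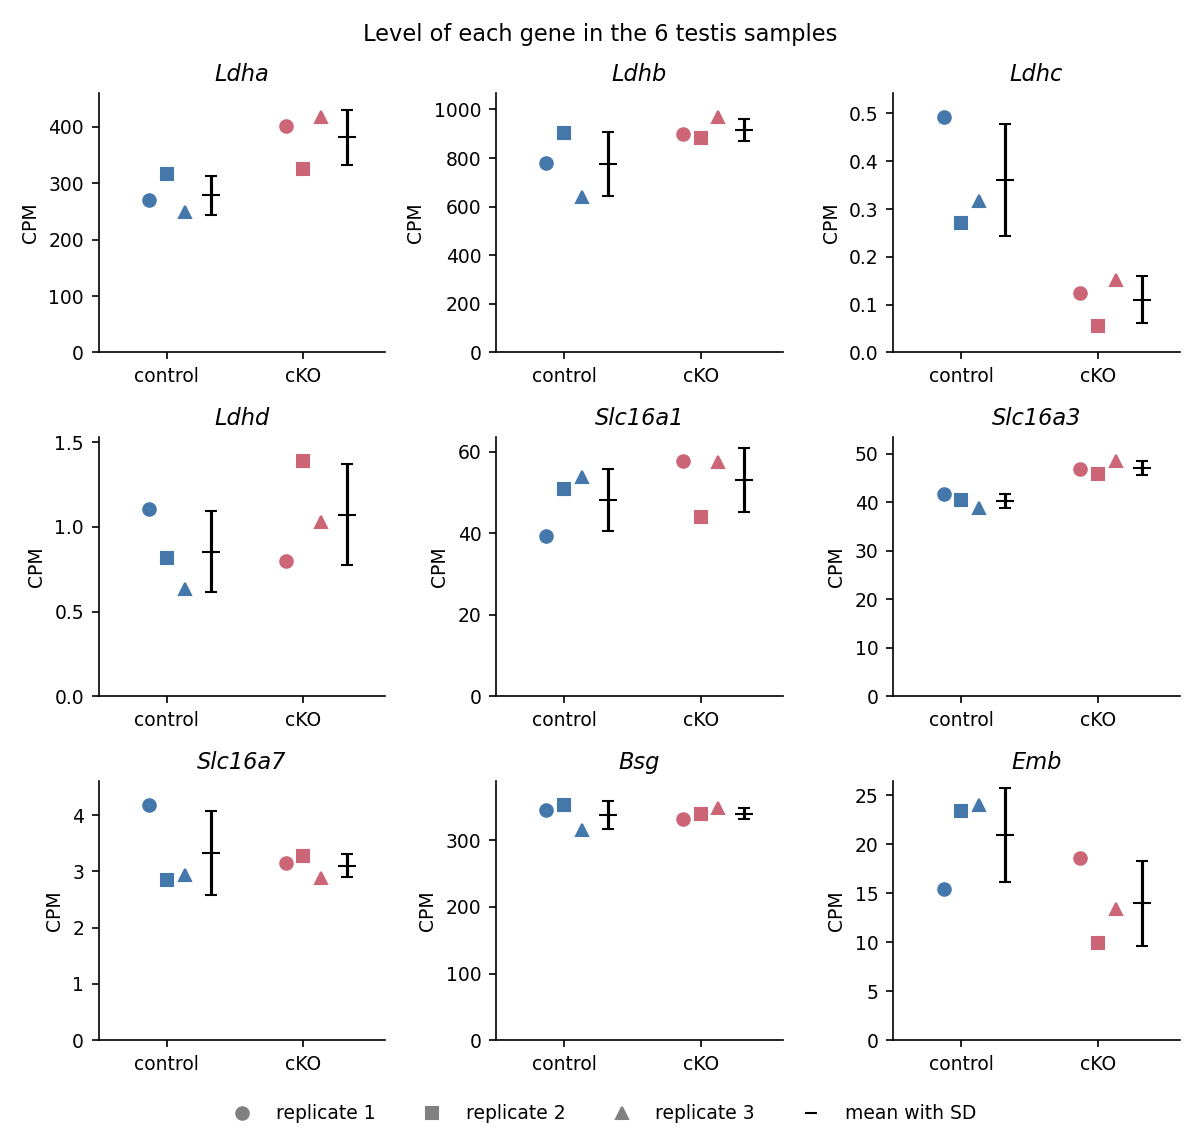
Level of each of the 9 genes in CPM (vertical axes from 0, a separate scale per gene) in the 3 control and 3 cKO samples, with the marker shape giving the replicate number and black bars the mean with SD. The points of Ldha and Slc16a3 are higher in all cKO samples, those of Ldhc are lower, and the groups overlap for the other 6 genes.

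Slc16a3, which encodes the exporter MCT4, spans chr11:120948484-120959000 on the plus strand and was the most even of the 9 genes among controls. Its level was 41.7, 40.4 and 38.8 CPM in control replicates 1, 2 and 3 and 46.8, 45.9 and 48.6 CPM in cKO replicates 1, 2 and 3. Every cKO sample lay above every control sample, and neither group spanned more than a 1.08-fold range. The means were 40.3 ± 1.46 and 47.1 ± 1.36 CPM (SD, n = 3 each), 16.7% apart. In edgeR the log2 fold change was 0.22 (SE 0.0618, 95% interval 0.086 to 0.36), with an adjusted p of 0.377 in edgeR and 0.163 in DESeq2. It kept its direction without cKO replicate 3, at 0.20 with an edgeR adjusted p of 0.633, and ranged from 0.19 to 0.25 over the 6 fits that left out a sample.

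Slc16a1, which encodes MCT1, spans chr3:104638664-104658462 on the plus strand. It gave 39.5, 50.9 and 53.9 CPM in control replicates 1, 2 and 3 and 57.8, 43.97 and 57.5 CPM in cKO replicates 1, 2 and 3. The groups overlapped. Within each group, Slc16a1 and the summed germ cell markers ranked the samples alike, from control replicate 3 through 2 to 1 and from cKO replicate 1 through 3 to 2. In cKO, however, replicates 1 and 3 were nearly level in Slc16a1, at 57.8 and 57.5 CPM, while their marker sums were 604 and 456 CPM. Over all 6 samples the orders differed. Its log2 fold change was 0.13 (SE 0.133, 95% interval -0.17 to 0.43, edgeR adjusted p = 0.719), and it moved between 0.019 and 0.25 as each sample was left out, with 0.073 without cKO replicate 3. Set against the summed germ cell markers, Slc16a1 amounted to 6.84, 5.85 and 5.83 CPM per 100 CPM of markers in the controls and 9.57, 14.9 and 12.6 in the cKO samples. Its mean was 48.1 CPM in control and 53.1 CPM in cKO, while the mean of the marker sum was 791 and 452 CPM. The counts of whole testes do not tell which cells carried the Slc16a1 RNA.

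Slc16a7, which encodes MCT2, spans chr10:125227485-125328535 on the minus strand and was the scarcest transporter. Its values were 4.19, 2.85 and 2.93 CPM in control replicates 1, 2 and 3 and 3.14, 3.28 and 2.87 CPM in cKO replicates 1, 2 and 3. All cKO values lay within the control range, and control replicate 1, the shallowest library, was the highest. For Slc16a7 the log2 fold change was -0.07 (SE 0.199, 95% interval -0.52 to 0.37, edgeR adjusted p = 0.913), and it was 0.10 when control replicate 1 was left out and -0.018 when cKO replicate 3 was.

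The ratio of exporter to importer overlapped between the groups. The log2 ratio of Slc16a3 to Slc16a1, per kilobase of exon, was 0.073, -0.34 and -0.48 in the controls and -0.31, 0.054 and -0.25 in the cKO samples. The mean difference was 0.079 in the direction of Slc16a3, but it was -0.037 when control replicate 3 was left out and -0.033 when cKO replicate 2 was. Slc16a1 made up 50.8% ± 5.57 of the 3 length-scaled transporter transcripts in control and 50.1% ± 3.57 in cKO (SD, n = 3 each).

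Bsg, which encodes basigin, the partner of MCT1 and MCT4, spans chr10:79704358-79711979 on the plus strand and was the member that differed least. Its level was 346, 354 and 315 CPM in control replicates 1, 2 and 3 and 332, 340 and 348 CPM in cKO replicates 1, 2 and 3. All cKO values lay inside the control range. The log2 fold change of 0.0093 (SE 0.0577, edgeR adjusted p = 0.968) had a 95% interval of -0.12 to 0.14, and it was -0.0077 without cKO replicate 3. Per kilobase, Bsg exceeded the sum of the 3 transporters by 9.89 ± 0.956-fold in control and 8.90 ± 0.787-fold in cKO (SD, n = 3 each).

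Emb, which encodes embigin, the partner best known for MCT2, spans chr13:117220573-117274415 on the plus strand. Its level was 15.4, 23.4 and 24.0 CPM in control replicates 1, 2 and 3 and 18.6, 9.96 and 13.4 CPM in cKO replicates 1, 2 and 3. The groups overlapped, since cKO replicate 1 lay above control replicate 1. Emb had a log2 fold change of -0.60 (SE 0.224, 95% interval -1.10 to -0.094), with an adjusted p of 0.389 in edgeR and 0.153 in DESeq2. Among all tested genes, 5.47% had a log2 fold change at least as large in either direction. DESeq2 called Emb in 2 of the 5 fits without a sample in which it gave an adjusted p, those without control replicate 1 (adjusted p = 0.0330) and without cKO replicate 1 (adjusted p = 0.00621). Those were the fits with the most calls, 313 genes (2.15%) and 300 genes (2.07%), against 111 with all samples. Without cKO replicate 3 the log2 fold change was -0.57 (edgeR adjusted p = 0.639).

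The Emb values moved with the germ cell markers from sample to sample. Ranked by Emb or by the summed germ cell markers, the 6 samples fell in the same order, from control replicate 3 at the top through control replicate 2, cKO replicate 1, control replicate 1 and cKO replicate 3 to cKO replicate 2. Per 100 CPM of germ cell markers, Emb gave 2.67, 2.69 and 2.60 CPM in the controls and 3.07, 3.38 and 2.94 CPM in the cKO samples, every cKO value lying above every control value. The mean marker sum was 791 CPM in control and 452 CPM in cKO, so a gene that fell less than the markers tends to rise on this scale. The share of all genes that separate so, or that rank the 6 samples in the same order as the markers, was not counted. The part of the germ cells in the Emb difference was not tested.

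**Figure D2:**
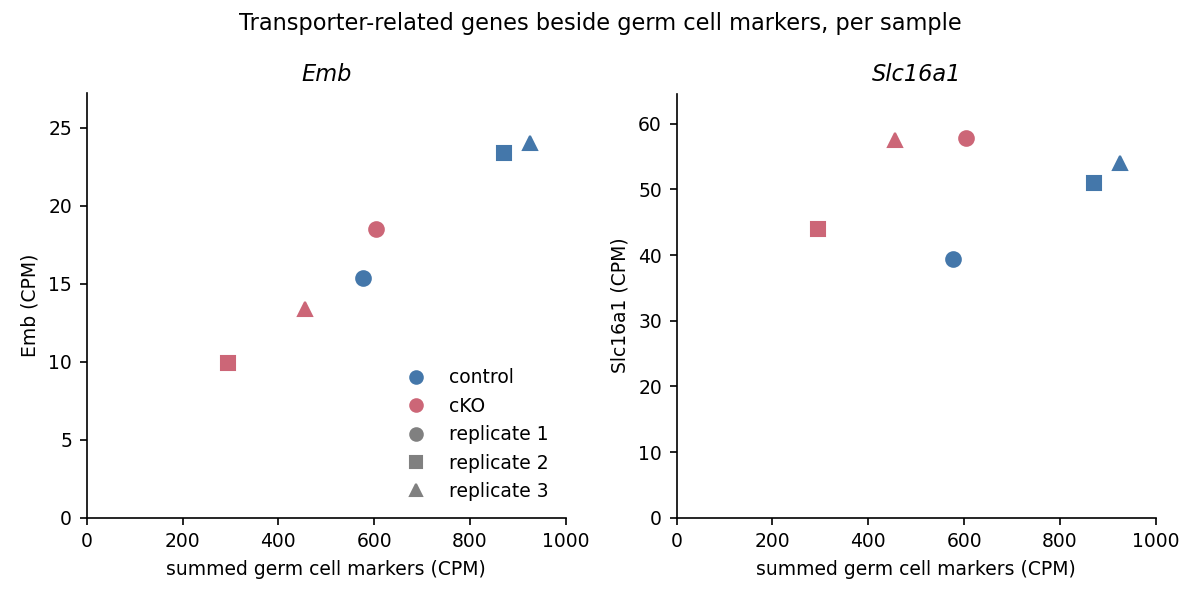
CPM of Emb (left) and of Slc16a1 (right) against the summed CPM of the 14 listed germ cell genes in each of the 6 samples, with axes from 0, colour giving the group and marker shape the replicate number. Emb climbs from 9.96 to 24.0 CPM in the same order as the markers. Slc16a1 lies between 39.5 and 57.8 CPM and follows the order of the markers within each group but not over all 6 samples.

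In order of level per kilobase in control, the genes ran Ldhb (594 ± 101), Bsg (210 ± 12.7), Ldha (147 ± 18.3), Slc16a1 (10.9 ± 1.73), Slc16a3 (9.07 ± 0.329), Emb (7.17 ± 1.65), Slc16a7 (1.37 ± 0.310), Ldhd (0.375 ± 0.105) and Ldhc (0.263 ± 0.0851), each as mean CPM per kilobase with SD over 3 samples. Neighbours in this order had separate ranges except Slc16a1 with Slc16a3 and Ldhd with Ldhc. In cKO the order was the same, but the ranges of Bsg (206 to 216) and Ldha (172 to 220) overlapped, as did those of Slc16a1 and Slc16a3. These levels rest on exon lengths of curated RefSeq transcripts. With the exons of all annotated transcripts, an alternative chosen after the data were seen, the Ldha length grew from 1895 to 3310 bases, the cKO range of Ldha (98.4 to 126) lay below that of Bsg (183 to 192), and Ldhc (0.228) stood above Ldhd (0.160) in the control means.

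**Figure D3:**
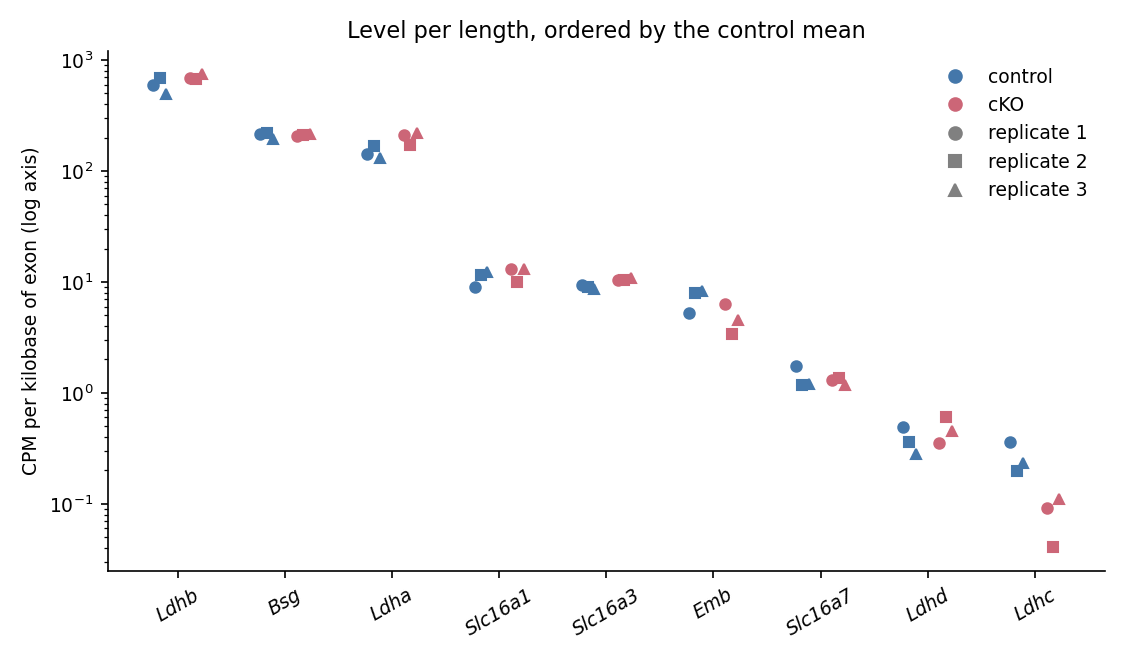
CPM per kilobase of exon (log axis) for the 9 genes in the order of their control means, with a point per sample, colour giving the group and marker shape the replicate number. Ldhb, Bsg and Ldha lie above 100, Slc16a1, Slc16a3 and Emb lie between 3.41 and 13.1, and Ldhd and Ldhc lie below 1.

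Taking the 9 genes as a group, edgeR called 0 where 6 of 15577 tested genes were called. DESeq2 called 1, Ldha, as higher, against 0.400% of the 14243 genes to which it gave an adjusted p. An unadjusted edgeR p below 0.05 was reached by Ldha, Slc16a3 and Emb, and by Ldhc, against 11.4% of all tested genes. Groups did not overlap with cKO above for Ldha and Slc16a3 and with cKO below for Ldhc. Leaving Ldhc apart, the median log2 fold change of the other 8 genes was 0.18, with 6 higher and 2 lower by fitted value, where 49.1% of all tested genes were above 0. With Ldhc the median was 0.13, and without cKO replicate 3 it was 0.073, with 5 of the 9 higher. Positive values belonged to Ldha, Ldhb and Ldhd among the enzymes, to Slc16a1 and Slc16a3 among the transporters and to Bsg, and the negative values belonged to Ldhc, Slc16a7 and Emb.

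**Figure D4:**
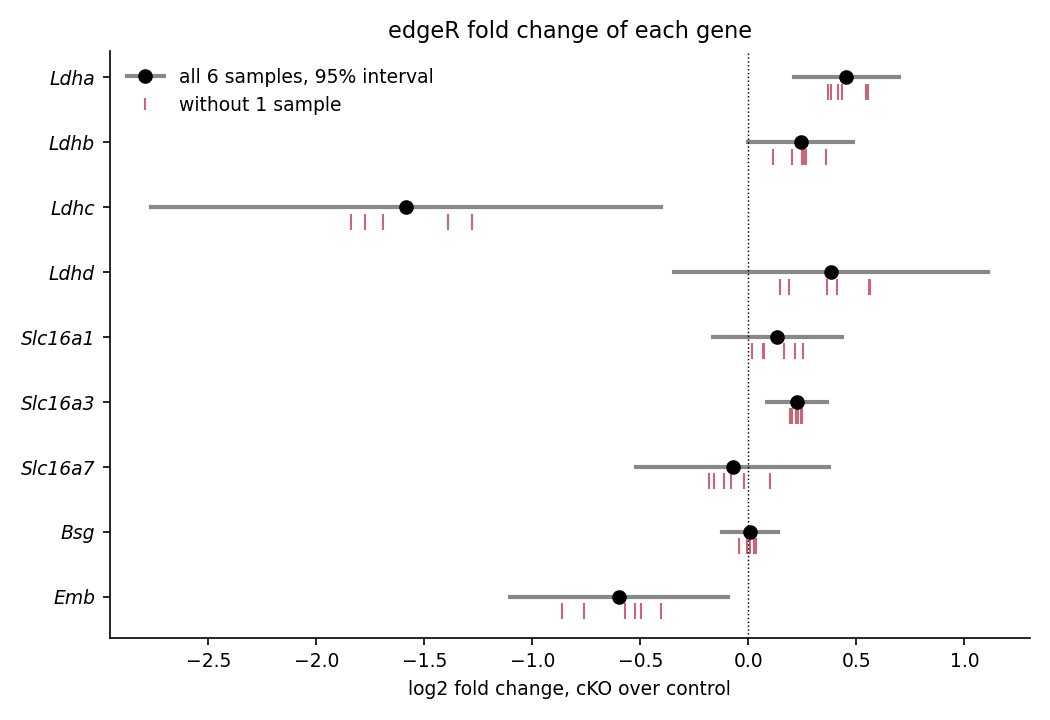
Log2 fold change of cKO over control in edgeR for the 9 genes, with grey bars for the 95% interval, black points for the fit to all 6 samples and red ticks for the fits without 1 sample (5 ticks for Ldhc, which did not pass the filter without control replicate 3). The intervals of Ldha and Slc16a3 lie above 0, those of Ldhc and Emb lie below, and those of the other 5 genes include 0.

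The genes whose profile over the 6 samples was most like that of Ldha, by the root mean square difference of centred log2 CPM, were Barx2 (0.068), Lypd8l (0.069), 4930513N10Rik (0.077), Ankrd34b (0.080) and Atp2b3 (0.087). Of these, Barx2, Lypd8l and Ankrd34b were sparse, with at most 2.19 CPM in any sample. Among the members, Ldhb stood at rank 96 of the tested genes by this measure (0.14) and Slc16a3 at rank 358 (0.18), while Emb was among the least alike (0.56).

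Upstream of lactate dehydrogenase, the 16 genes from glucose uptake to pyruvate had a median log2 fold change of 0.15, with 14 higher and 2 lower by fitted value, where 49.1% of all tested genes were above 0. Without cKO replicate 3 the median was 0.12, again with 14 higher. EdgeR called 0 of them, with 5 higher and 1 lower at an unadjusted p below 0.05, and DESeq2 called 2 as higher, Pfkl and Eno1, where 11.4% of all tested genes had such an unadjusted p and DESeq2 called 0.400% as higher. Pfkl, the liver-type phosphofructokinase of the committed step of glycolysis, was 142, 150 and 140 CPM in the controls and 175, 158 and 190 CPM in the cKO samples. The Pfkl groups did not overlap. Its log2 fold change was 0.27 (SE 0.0702), at an adjusted p of 0.377 in edgeR and 0.0473 in DESeq2, and without cKO replicate 3 it was 0.21 with a DESeq2 adjusted p of 0.477. Eno1, the enolase of lower glycolysis, was 507, 613 and 539 CPM in the controls and 728, 610 and 720 CPM in the cKO samples. The Eno1 groups overlapped through control replicate 2 and cKO replicate 2. Its log2 fold change was 0.31 (SE 0.0883), at a DESeq2 adjusted p of 0.0456, and without cKO replicate 3 it was 0.28 with a DESeq2 adjusted p of 0.477. As with Ldha, the highest list levels were those of cKO replicates 3 and 1, at 0.22 and 0.18 on the log2 scale relative to the control mean, and cKO replicate 2 was at -0.012, below control replicate 2 at 0.075. The mesonephros genes had their highest mean levels in the same pair of libraries, 0.40 in cKO replicate 3 and 0.27 in cKO replicate 1. Their level of -0.14 in cKO replicate 2 came from Lhx1, at 3.81 CPM there and between 8.37 and 16.4 CPM in the controls. Pax2, Pax8, Emx2 and Gata3 lay above their control means in that library. Over the samples, Lhx1 fell in the same order as the summed germ cell markers. The part of the mesonephros genes in the glycolysis values was not tested.

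Among other solute carriers of the Slc16 family, 8 of 11 genes were tested, 6 being higher and 2 lower by fitted value with a median log2 fold change of 0.11. EdgeR and DESeq2 called 0 of them, and 1 had an unadjusted edgeR p below 0.05, where 11.4% of all tested genes did. The lowest p was that of Slc16a4, a carrier whose substrates are less well defined, at 13.9, 10.8 and 9.52 CPM in the controls and 15.2, 15.0 and 15.2 CPM in the cKO samples. The Slc16a4 groups did not overlap, and its log2 fold change was 0.43 (SE 0.133, edgeR adjusted p = 0.377), the same to 2 decimals without cKO replicate 3. The Slc16a5 groups did not overlap either, but with cKO below control. Its log2 fold change was -0.46 (SE 0.294, edgeR adjusted p = 0.568), or -0.60 without cKO replicate 3, with at most 38 counts in a sample. Over all tested genes, 8.42% did not overlap with cKO above and 7.17% with cKO below. Of 7 other genes of lactate and pyruvate handling, 6 were tested, with a median log2 fold change of 0.068, 0 calls by edgeR or DESeq2 and 0 at an unadjusted p below 0.05. The lowest p there was that of Ldhal6b, a lactate dehydrogenase relative, at a log2 fold change of 0.60 (SE 0.384, edgeR adjusted p = 0.575) and at most 35 counts in a sample, or 0.53 without cKO replicate 3.

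At the branch where pyruvate enters mitochondria instead of becoming lactate, the 11 genes of the pyruvate dehydrogenase complex, its kinases and its phosphatases split into 5 higher and 6 lower by fitted value, with a median log2 fold change of -0.0065. EdgeR and DESeq2 called 0 of them. At an unadjusted edgeR p below 0.05, 1 was higher and 1 lower, where 11.4% of all tested genes had such a p. The lowest p was that of Pdhb, a subunit of the first enzyme of the complex, with 94.1, 104 and 100.2 CPM in the controls and 94.2, 87.5 and 82.2 CPM in the cKO samples. The Pdhb groups overlapped at control replicate 1 and cKO replicate 1, and the log2 fold change was -0.18 (SE 0.0683, edgeR adjusted p = 0.396), or -0.13 without cKO replicate 3.

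**Figure D5:**
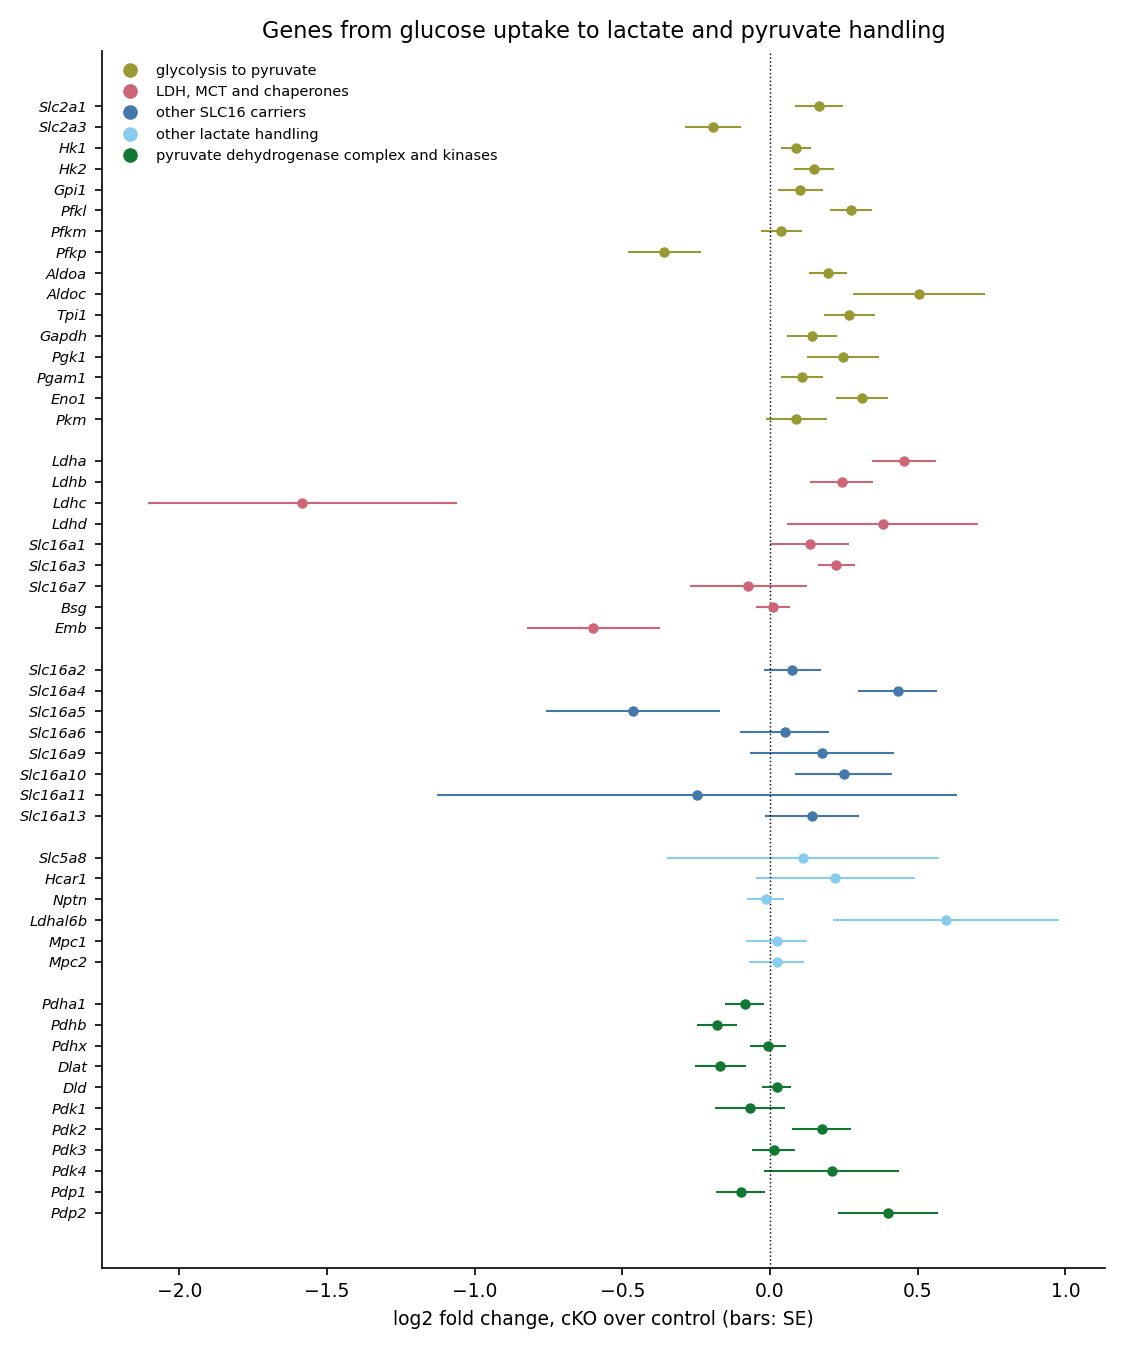
Log2 fold change of cKO over control in edgeR (horizontal axis, bars for the SE) for the tested genes from glucose uptake to lactate and pyruvate handling, coloured by list. Of the 16 glycolysis genes, 14 lie to the right of 0, the 9 lactate dehydrogenase and transporter genes run from Ldhc at -1.58 to Ldha at 0.45, and the pyruvate dehydrogenase genes lie on both sides of 0.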

How the data were processed

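The deposited values were raw read counts per gene, without normalization. The authors made stranded mRNA libraries, aligned read pairs to mm10 with STAR (version 2.5 in the submitters' processing notes) and counted RefSeq Curated genes with featureCounts of Subread 1.5.0-p1 in reverse-stranded mode. Groups and replicate numbers came from the sample titles. Coordinates of genes are those of the table.

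Counts were tested in R 4.3.3 with the quasi-likelihood F-test of edgeR 4.0.16 on all 6 samples without covariates (filterByExpr with a minimum count of 10, TMM normalization), with Benjamini-Hochberg adjustment over all tested genes. Genes with an adjusted p below 0.05 are termed called. SEs were derived from the F statistic. CPM used TMM-scaled library sizes, and profiles used log2 of CPM plus 2. List levels were mean log2 CPM (plus 0.5) relative to the control mean. Exon lengths came from GENCODE transcripts matched to curated RefSeq.

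The members and lists were chosen with earlier results of these data known. The text names each member, the called gene and the gene of lowest p in each pathway list, Ppp1r3c and the 5 genes most like Ldha. Xist, Eno1, Slc16a5, the Sertoli cell, pre-granulosa and mesonephros genes named singly, and the samples singled out were chosen after their values were seen. Alternatives were DESeq2 1.42.0, limma-voom (limma 3.58.1), RLE size factors, other filters, a block for the replicate number, and 1 sample left out at a time. DESeq2 without each sample and the longer exon lengths were chosen after seeing the data. Each test was first tried on simulated data. No 2 libraries of the same group agreed within sampling noise.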

Additional observations from a re-analysis of the deposited data

How the results depend on the processing

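With DESeq2 in place of edgeR, 1 member (Ldha) was called in place of 0, and 2 glycolysis genes (Pfkl and Eno1) in place of 0. Under limma-voom, RLE size factors, both other filters and each left-out sample, edgeR or limma called 0 members. Without each sample, DESeq2 called between 0 and 2 members, with 0 only without cKO replicate 3, where its calls over all genes fell to 14 from between 48 and 313 in the other such fits. Values near 0 changed sign: the Slc16a7 log2 fold change was 0.0037 under limma-voom and between -0.18 and 0.10 without each sample, that of Bsg was between -0.046 and 0.035, the median of the pyruvate dehydrogenase genes was between -0.052 and 0.041 (0.0063 without control replicate 2), and the log2 ratio of Slc16a3 to Slc16a1 differed between the groups by -0.037 to 0.24. The cause of these changes was not tested. Ldhc had no value under the filter of at least 1 CPM or without control replicate 3, being removed there. Replicate numbers were shared by the groups, but same-numbered samples did not deviate together (correlations of -0.35, -0.40 and -0.19), and no pairing was used. With the replicate block, 0 members were called and Ldha had a log2 fold change of 0.45 (edgeR adjusted p = 0.777). The counts of Ldhc and Ldhd limit what can be said of either. Intervals on counts cover counting error only, and PCR duplicates were not separable.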
